A study of Mus musculus with 6 samples.

Results

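The genes described here encode proteins that mark mitochondria for removal by autophagy, a process called mitophagy. They are 10 genes, chosen by symbol: the receptors Bnip3, Bnip3l, Fundc1, Fkbp8 and Bcl2l13 of the outer mitochondrial membrane, the prohibitins Phb2 and Phb of the inner membrane, the kinase gene Pink1, and the autophagy adaptors Optn and Sqstm1. All 10 were found, each as 1 identifier, among the 54532 gene identifiers of the series. RNA was sequenced from an immortalised line of mouse bone marrow-derived macrophages in which a short hairpin RNA lowered either PGAM5, a phosphatase of mitochondria, or DRP1, the GTPase that pinches mitochondria apart. There were 3 libraries labelled shPGAM5 and 3 labelled shDRP1, and the cells of all 6 were treated for 24 h with interleukin-4 (10 ng/ml). A library without a knockdown was not analysed here, so each value below compares one knockdown with the other, and a gene that is higher with shPGAM5 is equally lower with shDRP1. Nothing in the labels tells whether libraries 1 to 3 of a group are separate cultures or carry different hairpins. The p-values therefore measure the spread between these libraries alone, and that spread may be technical.

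Mitophagy can start in more than one way. Receptors such as BNIP3, NIX (the product of Bnip3l) and FUNDC1 sit in the outer membrane and bind the LC3 and GABARAP proteins of the forming autophagosome directly. In the other route the kinase PINK1 builds up on damaged mitochondria, ubiquitin chains are added to proteins of the outer membrane, and adaptors such as optineurin and p62 (the product of Sqstm1) then link these chains to the autophagosome. PGAM5 is known as a phosphatase of FUNDC1 and as a partner of PINK1, while DRP1 divides mitochondria into pieces small enough to be engulfed. Bnip3 and Bnip3l are known targets of hypoxia-inducible factor (HIF), the transcription factor of the oxygen response.

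Levels are in FPKM, fragments scaled to transcript length and to each library's total, so that genes can be compared. The reads behind them were 16111280 to 21933546 per library. Pgam5 was lower in the shPGAM5 libraries (4.91, 5.21 and 4.60 FPKM) than in the shDRP1 libraries (17.3, 17.1 and 17.2), and Dnm1l, the gene of DRP1, was lower in the shDRP1 libraries (8.18, 7.42 and 7.12 FPKM against 17.2, 18.7 and 17.7), so each targeted gene was lower in the libraries labelled for it. Of 10 macrophage markers 9 had a mean of at least 1 FPKM, and Mertk was near 0. Their summed level was 3780 to 3950 FPKM with shPGAM5 and 4830 to 4870 with shDRP1, and its part in the results below was not tested. Markers of fibroblasts, epithelium and endothelium, and granulocytes and red cells summed to at most 0.556 FPKM in any library. Of 11 T and B cell markers only Lck, at a mean of about 7 FPKM, exceeded 1, and Cd3e was at 0. Library 3 of shPGAM5 stood apart, with a chi-square per gene of 7.16 and 5.09 against the other libraries of its group, where every other pair within a group gave 2.51 to 3.05.

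Bnip3 was far higher with shPGAM5 than with shDRP1, and Phb2, Phb and Bnip3l were modestly higher. Sqstm1 was slightly lower. Fundc1, Fkbp8, Bcl2l13 and Pink1 did not pass the test, and Optn was at the detection limit. The test was limma on log2(FPKM + 1), over the 10634 genes with a mean of at least 1 FPKM, with Benjamini-Hochberg adjustment and a threshold of 0.05. Of the 9 members tested 4 were called higher and 1 lower, where 13.8% of all tested genes were called higher and 11.7% lower. The median log2 difference (shPGAM5 minus shDRP1) was 0.12 over the 9 and 0.009 over all genes tested. Library 3 of shPGAM5 held the highest value of the 6 libraries for 6 of the 9 members, as it did for 26.1% of all tested genes. Without that library 3 members were called higher and 1 lower, Bnip3l having dropped out.

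**Figure D1:**
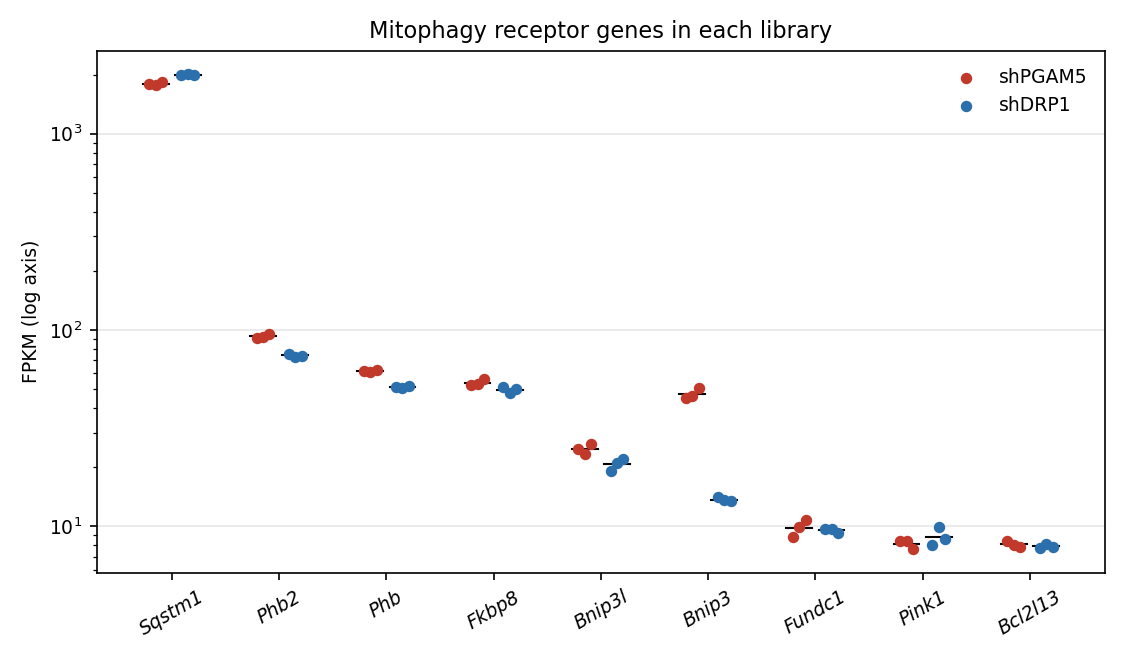
FPKM (log axis) of the 9 tested members in each library, in order of their shDRP1 mean; red points are the 3 shPGAM5 libraries, blue points the 3 shDRP1 libraries, and black lines the group means. Bnip3 lies at 44.8 to 50.6 in red and 13.4 to 14 in blue, while the red and blue points of Fundc1, Bcl2l13 and Pink1 overlap.

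The stretches before the transcription start of Bnip3 and Phb are shown. Among the 9 members with a promoter entry, their promoters held the most letter matches to the HIF core site. Both genes were called higher with shPGAM5. Phb2 was called higher too (log2 difference 0.32), and its promoter, not shown, held 1 match. The choice was made with the calls known, and a link between letters and calls was not tested. The sequences are RefSeq's, on build GRCm38.p6, and are written in the gene's own direction. Capitals mark ACGTG or GCGTG read on either strand, the core letters that HIF is known to bind; CACGTG, the E-box letters that TFEB, the lysosome regulator, is known to bind, contains ACGTG once on each strand. The Bnip3 stretch is chr7:138909520-138909656, minus strand, from 150 to 14 bases before the start. The Phb stretch is chr11:95666707-95666956, plus strand, the 250 bases before the start.
Bnip3: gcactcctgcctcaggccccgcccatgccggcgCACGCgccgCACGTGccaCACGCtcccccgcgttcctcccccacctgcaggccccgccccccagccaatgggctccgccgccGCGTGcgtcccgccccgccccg
Phb: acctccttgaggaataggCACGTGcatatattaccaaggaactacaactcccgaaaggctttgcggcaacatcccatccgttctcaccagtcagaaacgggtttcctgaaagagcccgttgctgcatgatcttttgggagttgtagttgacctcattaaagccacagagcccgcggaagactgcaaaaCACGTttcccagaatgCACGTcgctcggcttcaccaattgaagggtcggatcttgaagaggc

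Counting both strands over 250 bases, the Bnip3 promoter held 5 matches to ACGTG or GCGTG, which begin 117, 108, 107, 99 and 35 bases before the start, the pair at 108 and 107 being the 2 strands of 1 CACGTG. Among the 32851 RefSeq promoters searched the same way, 1.01% held 5 or more, and the printed Bnip3 stretch is 81.0% G and C. The Phb promoter held 4, at 232, 231, 62 and 46 bases, all of them ACGTG, and 2.58% of all promoters held 4 or more. Bnip3l had no promoter entry. ACGTG was present in 4 of the 9 members with an entry (Bnip3, Phb, Phb2 and Fkbp8) and in 16.6% of all promoters. GCGTG was present in 5 of the 9 members (Bnip3, Fkbp8, Bcl2l13, Pink1 and Optn) and in 28.2% of all promoters. Of the 5 members with GCGTG only Bnip3 was called higher. Of the 4 with ACGTG, Bnip3, Phb and Phb2 were called higher and Fkbp8 was not. CACGTG was present in Bnip3 and Phb and in 6.0% of all promoters. A match to ACGTG or GCGTG was present in every member with an entry except Fundc1 and Sqstm1, and in 38.6% of all promoters. The letters TGACNNNGC, the core of the antioxidant response element through which NRF2 acts, occurred in 1 of the 9 (Bcl2l13) and in 10.2% of all promoters. The Sqstm1 and Fundc1 windows held none of the 4 motifs. Annotated exons covered 148 bases of the Sqstm1 window and 105 of the Fundc1 window, which lay wholly inside the annotated Fundc1 gene. They also covered 140 bases of the Phb2 window and 98 of the Fkbp8 window. These are matches of letters and not measured binding.

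Among the outer membrane receptors, Bnip3 (ENSMUSG00000078566, mm10 chromosome 7, 138890836 to 138909519, minus strand), which encodes a receptor anchored by its tail that binds LC3, measured 44.8, 46.2 and 50.6 FPKM in the shPGAM5 libraries and 14, 13.6 and 13.4 in the shDRP1 libraries. The groups lay far apart, with the lowest shPGAM5 library above 3 times the highest shDRP1 library. Means were 47.2 ± 3.00 and 13.7 ± 0.31 FPKM (SD, n = 3 libraries each), a 3.46-fold difference that rests on 5610 against 1720 reads. The log2 difference was 1.72 (SE 0.049, 95% interval 1.60 to 1.83, limma adjusted p = 4.5e-06), the fifth highest of the 10634 genes tested. It lay between 1.67 and 1.79 in all 14 alternative analyses and passed the threshold in each. In a bulk culture, more cells that express a gene and more RNA per cell cannot be told apart.

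Transcripts of other genes matched 94.2% of the longest Bnip3 transcript, counting stretches of 100 bases or longer that were at least 97% identical. The copy with the longest match, the lincRNA AC160336.1, was at 0.006 FPKM or less in every library, the pseudogene Gm6532 at 0.202 or less, and Gm16439 and the antisense gene Gm45507 at 0 in all 6. How reads shared by a gene and its copy were counted is not stated, so the absolute level of Bnip3 is uncertain in both groups.

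Bnip3l (ENSMUSG00000022051, chromosome 14, 66985239 to 67008877, minus strand) encodes NIX, the receptor that clears mitochondria from maturing red cells. It measured 24.7, 23.2 and 26.3 FPKM with shPGAM5 and 19.0, 20.9 and 22.0 with shDRP1. The groups did not overlap but came close, and the means of 24.7 ± 1.57 and 20.7 ± 1.5 FPKM differed 1.20-fold. The log2 difference of 0.25 (SE 0.064, 95% interval 0.10 to 0.40) passed with limma adjusted p = 0.027. The call was lost without library 1 or 3 of shPGAM5 (adjusted p = 0.060 and 0.063), without library 1 or 2 of shDRP1 (0.076 and 0.068) and without the filter on low values (0.077), and the 14 alternatives spanned 0.0049 to 0.077. A transcribed pseudogene, Bnip3l-ps, matched 34.7% of its transcript and was itself measured at 7.05 ± 0.65 and 5.96 ± 0.79 FPKM, a difference that did not pass (limma adjusted p = 0.14).

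Fkbp8 (ENSMUSG00000019428, chromosome 8, 70527724 to 70535328, plus strand) encodes an immunophilin of the outer membrane that recruits LC3A. It measured 52.4, 53.2 and 56.1 FPKM with shPGAM5 and 51.0, 47.6 and 49.9 with shDRP1. The groups did not overlap, yet the log2 difference of 0.12 (SE 0.039, 95% interval 0.028 to 0.213) missed the threshold (limma adjusted p = 0.062). It passed with voom on the recovered reads (adjusted p = 0.028), the lowest of 14 alternatives, which reached 0.19. In all, the groups of 5 members did not overlap in the higher direction and those of 1 member in the lower, where 23.0% and 20.5% of all tested genes did so.

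Fundc1 (ENSMUSG00000025040, chromosome X, 17556564 to 17572325, minus strand), the receptor gene whose protein PGAM5 is known to dephosphorylate, measured 8.85, 9.89 and 10.7 FPKM with shPGAM5 and 9.65, 9.73 and 9.26 with shDRP1. The shDRP1 values lay inside the range of the shPGAM5 values. The log2 difference was 0.03 (95% interval -0.12 to 0.19, limma adjusted p = 0.75), and it was -0.03 without library 3 of shPGAM5. That interval reflects the spread between these libraries alone. Bcl2l13 (ENSMUSG00000009112, chromosome 6, 120836212 to 120892842, plus strand), often described as the mammalian counterpart of the yeast receptor Atg32, measured 8.41, 7.99 and 7.85 FPKM against 7.75, 8.07 and 7.85. These groups overlapped as well, with a log2 difference of 0.03 (95% interval -0.07 to 0.13, limma adjusted p = 0.65). Bcl2l13 shares 628 exonic bases with Bid on the opposite strand, and the sources used here do not give the strand setting of the counting. Bid, which encodes a death-promoting BCL2 relative, was higher with shPGAM5 (41.3 ± 1.40 against 36.8 ± 0.69 FPKM, limma adjusted p = 0.014), a call lost without library 2 of shDRP1 (0.059).

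**Figure D2:**
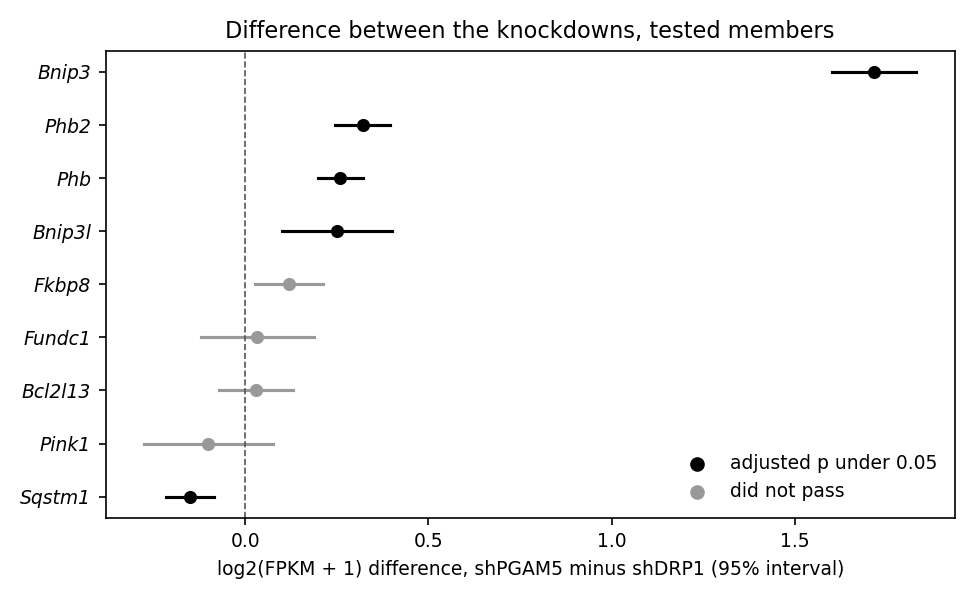
Difference in log2(FPKM + 1), shPGAM5 minus shDRP1, of the 9 tested members with its 95% interval from limma; black marks passed the threshold and grey marks did not. Bnip3 stands at 1.72, apart from all others, which lie between -0.15 and 0.32.

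Both prohibitin genes were higher with shPGAM5 than with shDRP1. PHB2 and PHB form a ring-shaped complex in the inner membrane, and PHB2 can bind LC3 once the outer membrane has ruptured. Phb2 (ENSMUSG00000004264, chromosome 6, 124712336 to 124716950, plus strand) measured 90.7, 92.2 and 95.8 FPKM with shPGAM5 and 75.8, 72.8 and 74.0 with shDRP1. Phb (ENSMUSG00000038845, chromosome 11, 95666957 to 95680773, plus strand) measured 61.6, 60.7 and 62.2 FPKM against 51.4, 50.7 and 51.5. Neither gene's groups overlapped, and their spread within groups was small.

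Phb2 was 1.25-fold higher (log2 difference 0.32, SE 0.032, limma adjusted p = 0.00055) and Phb 1.20-fold higher (0.26, SE 0.026, limma adjusted p = 0.00061). Both calls held in all 14 alternatives, with adjusted p of at most 0.0057 and 0.0067. The transcribed pseudogene Gm7666 matched 45.5% of the longest Phb transcript and was measured at 7.88 ± 1.35 and 8.60 ± 0.69 FPKM, and it did not pass (limma adjusted p = 0.45). Fyb, an adaptor gene of immune cells, matched 18.8% of the same transcript and was at 43.4 to 49.1 FPKM, near the level of Phb itself. Together 3 genes matched 51.5% of it, so the absolute level of Phb is uncertain as well. No transcript of another gene matched Phb2 at that identity.

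Pink1 (ENSMUSG00000028756, chromosome 4, 138313409 to 138326307, minus strand), the gene of the kinase that senses damaged mitochondria, measured 8.44, 8.39 and 7.64 FPKM with shPGAM5 and 8.06, 9.88 and 8.56 with shDRP1. The groups overlapped, and library 2 of shDRP1 was the highest. The log2 difference was -0.10 (SE 0.075, 95% interval -0.28 to 0.08, limma adjusted p = 0.37), the widest interval of the 9.

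Of the autophagy adaptors, Sqstm1 (ENSMUSG00000015837, chromosome 11, 50199366 to 50210827, minus strand), whose product p62 gathers ubiquitin-tagged cargo, was the most abundant member and stood at the 99.9th percentile of tested genes by mean level. It measured 1797, 1774 and 1835 FPKM with shPGAM5 and 1994, 2004 and 2003 with shDRP1. The groups did not overlap, and the shDRP1 libraries were nearly alike. The means of 1802 ± 30.7 and 2000 ± 5.70 FPKM differed 1.11-fold, lower with shPGAM5 (log2 difference -0.15, SE 0.028, limma adjusted p = 0.0073). Without the filter on low values this call was lost (adjusted p = 0.18). Over 14 alternatives the adjusted p ran from 6.0e-05 to 0.18 and the difference from -0.16 to -0.09, which is the value under quantile normalization.

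Optn (ENSMUSG00000026672, chromosome 2, 5020642 to 5064051, minus strand), the gene of optineurin, was not detectable at this depth. It had 1 read in library 1 of shPGAM5, listed at 0.015 FPKM, and 0 reads in the other libraries. A count of 0 allows up to 3 reads, or 0.0364 to 0.0496 FPKM per library, for counting error only. The other ubiquitin-binding adaptors differed among themselves. Calcoco2, the gene of NDP52, had 0 against 4 reads, while Tax1bp1 (19.6 ± 0.55 against 20.6 ± 0.52 FPKM) and Nbr1 (22.3 ± 0.73 against 23.5 ± 0.70) were expressed and did not pass (limma adjusted p = 0.22 and 0.21). These adaptors, too, are named after their values were seen.

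In both groups Sqstm1 ranked first by level, followed by Phb2, Phb and Fkbp8. With shDRP1 the order went on with Bnip3l, Bnip3, Fundc1, Pink1, Bcl2l13 and Optn. The libraries of neighbours overlapped there for Phb and Fkbp8, for Fundc1 and Pink1, and for Pink1 and Bcl2l13. With shPGAM5 Bnip3 stood above Bnip3l, and only Pink1 and Bcl2l13 overlapped as neighbours. The ratio of Bnip3 to Bnip3l within a library was 1.82, 1.99 and 1.92 with shPGAM5 and 0.736, 0.647 and 0.610 with shDRP1. The groups of this ratio did not overlap. Which of these receptor genes is the higher within a group depends on their absolute levels, which the copies described above leave uncertain. On the log2 scale the means were 0.93 ± 0.07 and -0.59 ± 0.14 (SD, n = 3), a difference of 1.53 with an exact permutation p of 0.1, two-sided, the smallest that 3 libraries against 3 can give. For the prohibitins, the ratio of Phb2 to Phb was 1.47, 1.52 and 1.54 with shPGAM5 and 1.47, 1.44 and 1.44 with shDRP1. The groups of this ratio overlapped, and the log2 difference of 0.06 had an exact permutation p of 0.2. Which prohibitin gene is the higher is uncertain too, as other genes match part of the Phb transcript.

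**Figure D3:**
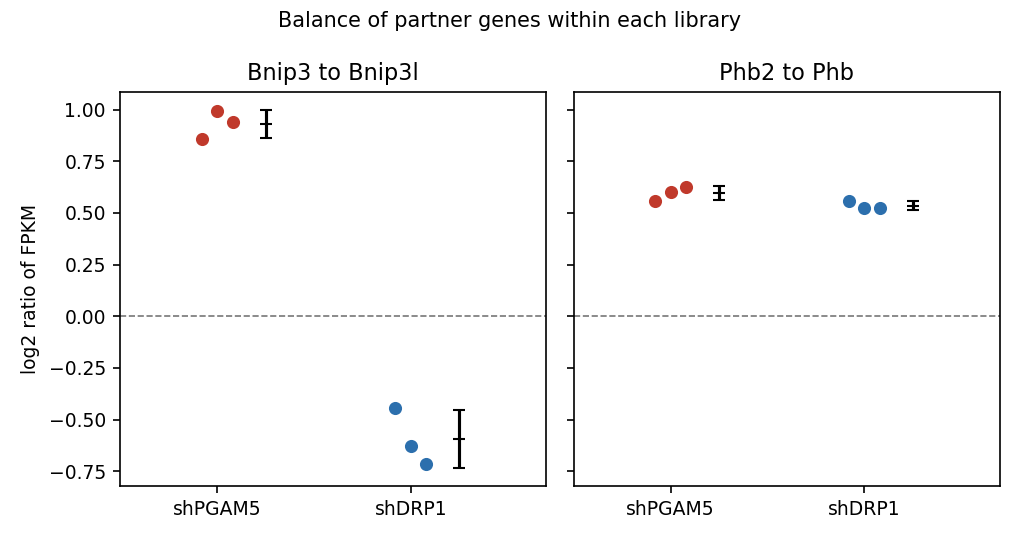
Log2 ratio of FPKM within each library, for Bnip3 to Bnip3l (left) and Phb2 to Phb (right); points are libraries, bars beside them the mean and SD of 3 libraries, and the dashed line marks equal levels. The Bnip3 to Bnip3l ratio lies above equality in all 3 shPGAM5 libraries and below it in all 3 shDRP1 libraries. Measured Phb2 exceeds measured Phb in all 6. Matching transcripts of other genes leave the levels of Bnip3, Bnip3l and Phb uncertain.

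The summed level of the 5 outer membrane receptor genes was 139.2, 140.5 and 151.6 FPKM with shPGAM5 and 101.4, 99.93 and 102.4 with shDRP1. This sum was formed after the values were seen and is a description. The groups did not overlap, with means of 144 ± 6.82 and 101.2 ± 1.26 FPKM. Bnip3 made up 78.9% of the difference in the sum, Fkbp8 10.4%, Bnip3l 9.63%, and Fundc1 and Bcl2l13 each under 1%. The share of Bnip3 in the sum was 32.8% ± 0.58 with shPGAM5 and 13.5% ± 0.37 with shDRP1 (SD, n = 3). The share of Fkbp8, the largest in both groups, was 37.5% ± 0.44 and 48.9% ± 1.30.

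**Figure D4:**
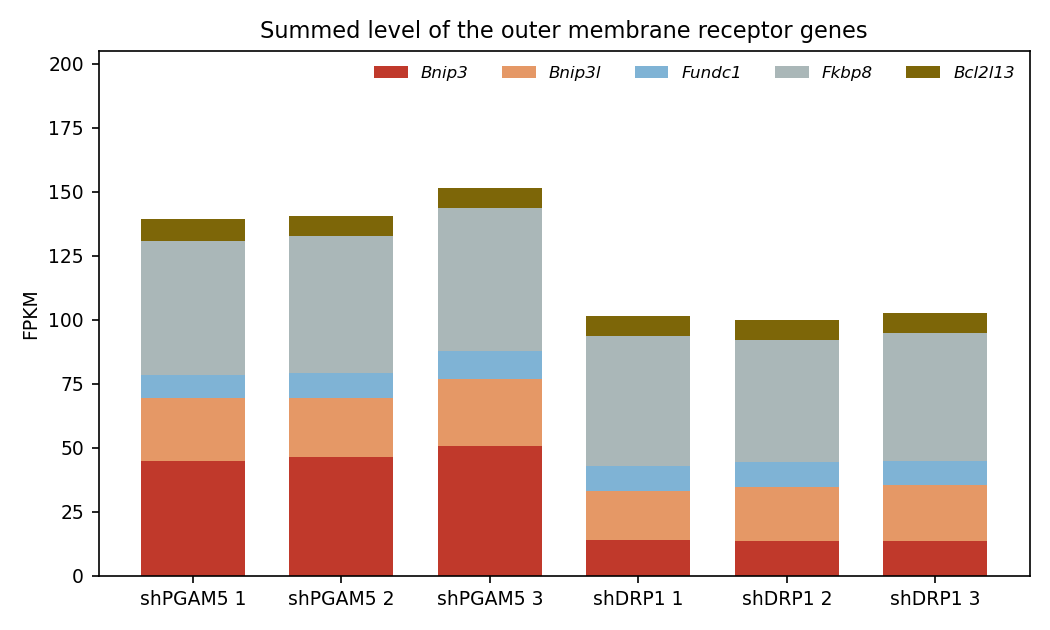
Stacked FPKM of Bnip3, Bnip3l, Fundc1, Fkbp8 and Bcl2l13 in each of the 6 libraries; the height of a bar is their sum. The shPGAM5 bars reach 139.2 to 151.6 and the shDRP1 bars 99.93 to 102.4, and the Bnip3 segment differs most between them.

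In 4 of the 5 lists of related genes, 75.8% to 85.7% of the tested genes did not pass, where 74.6% of all tested genes did not. For the lists, a gene that rose or fell is one called higher or lower with shPGAM5 than with shDRP1. Of 28 tested genes of the PINK1 pathway besides Pink1, which act in protein import or ubiquitin tagging or are tagged themselves, 4 rose, 0 fell and 24 did not pass in limma, with a median log2 difference of 0.042; the share that rose, 14.3%, is close to the 13.8% of all tested genes. At an unadjusted p under 0.05 the counts were 7 and 0, where all 10634 tested genes gave 2184 and 1857. With voom on recovered reads they were 6 and 0, where all tested genes gave 1693 and 1488. Vdac1, a channel of the outer membrane, had the largest difference, at 65.8, 64.5 and 75.0 FPKM against 49.3, 48.9 and 49.8. All of its shPGAM5 libraries lay above all of its shDRP1 libraries, and the log2 difference was 0.46 (limma adjusted p = 0.0013). Tomm22, a receptor of the import pore, was 1.20-fold higher and Pmpca, a subunit of the matrix peptidase that trims imported proteins, 1.11-fold higher (limma adjusted p = 0.0039 and 0.016). The Pmpca call was lost without library 1 of shDRP1 (0.062), where 2 genes of the list rose in all.

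Of 28 other receptors, adaptors and regulators of mitophagy 5 rose, 1 fell and 22 did not pass (median log2 difference 0.051). The share that rose was 17.9%, where 13.8% of all tested genes rose and 11.7% fell. Csnk2a2, a catalytic subunit of casein kinase 2, which is known to phosphorylate FUNDC1 in opposition to PGAM5, measured 11.1, 11.0 and 11.0 FPKM with shPGAM5 and 8.34, 8.73 and 9.37 with shDRP1 (log2 difference 0.30, limma adjusted p = 0.0041). Its groups did not overlap. Fbxl4, part of a ubiquitin ligase that holds BNIP3 and NIX proteins down, was 1.24-fold higher, at 5.78 ± 0.14 against 4.66 ± 0.25 FPKM (limma adjusted p = 0.0097). Bcl2, the anti-apoptotic gene, was 1.21-fold higher (limma adjusted p = 0.041), a call lost without any 1 of the 6 libraries, with the replicate block and without the filter, with adjusted p of up to 0.12. Nipsnap2, a matrix protein that is exposed on damaged mitochondria, was the 1 that fell (log2 difference -0.17). It is named after its values were seen, and the count that fell was 0 without library 1 or 3 of either knockdown, with the replicate block and without the filter on low values. Without library 1, 2 or 3 of shDRP1, 3 genes of this list rose.

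Of 33 genes of the core autophagy machinery 4 rose, 4 fell and 25 did not pass (median log2 difference 0.012), so the list had no common direction. Its share that rose was 12.1%, where 13.8% of all tested genes rose and 11.7% fell. Wdr45, which binds the phospholipid of the forming membrane, was 1.41-fold higher (4.59 ± 0.12 against 3.26 ± 0.28 FPKM). Atg4c, a protease that processes LC3-type proteins, was lower (5.98 ± 0.27 against 7.76 ± 0.13 FPKM), as was the lipid transfer gene Atg2b (8.61 ± 0.49 against 11.0 ± 0.14). Their limma adjusted p values were 0.0042, 0.0023 and 0.0031. Of 15 prohibitin partners and mitochondrial proteases 3 rose, 0 fell and 12 did not pass (median log2 difference 0.072), with 7 and 0 at an unadjusted p under 0.05 and 6 and 0 with voom. These were Clpx (log2 difference 0.21), the unfoldase of a matrix protease, C1qbp (0.18), a matrix protein needed for translation, and Lonp1 (0.16), a matrix protease, with limma adjusted p of 0.014, 0.0041 and 0.0099.

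Among the 5 lists, the HIF list had the largest median difference. This list of HIF targets and HIF subunits holds neither Bnip3 nor Bnip3l. Of its 22 genes 21 were found and 16 were tested. Of the 16, 14 rose (87.5%), 1 fell and 1 did not pass, with a median log2 difference of 0.44. Over all tested genes 13.8% rose and 11.7% fell. Ankrd37, Egln3, Car9, P4ha2 and Epas1 were below the filter. When limma was run without the filter, only Ankrd37 of these passed, higher with shPGAM5 (adjusted p = 0.0060). The list was written when the rise of several of its genes was already known, so it is not independent evidence of its direction. Adm, which encodes the peptide adrenomedullin, measured 11.6, 11.7 and 11.6 FPKM against 2.15, 2.34 and 2.45 (log2 difference 1.93). Egln1, which encodes the oxygen sensor that marks HIF for degradation, measured 13.1, 12.6 and 12.2 FPKM against 5.94, 6.06 and 6.85 (0.91). Pdk1, a kinase that holds pyruvate out of the mitochondrion's citric acid cycle, measured 8.95, 8.79 and 7.95 FPKM against 4.54, 4.56 and 4.61 (0.78). In these genes, as in Bnip3, every shPGAM5 library lay above every shDRP1 library. The subunit gene Hif1a was the 1 that did not pass (limma adjusted p = 0.42), with means of 52.1 ± 0.47 and 53.3 ± 0.15 FPKM and a log2 difference of -0.03, and Epas1, the gene of HIF-2 alpha, had 4 against 3 reads. Bhlhe40, a transcriptional repressor, was the 1 that fell (log2 difference -0.18), a count that became 0 without library 2 of shPGAM5 or library 1 or 3 of shDRP1, or with the replicate block.

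**Figure D5:**
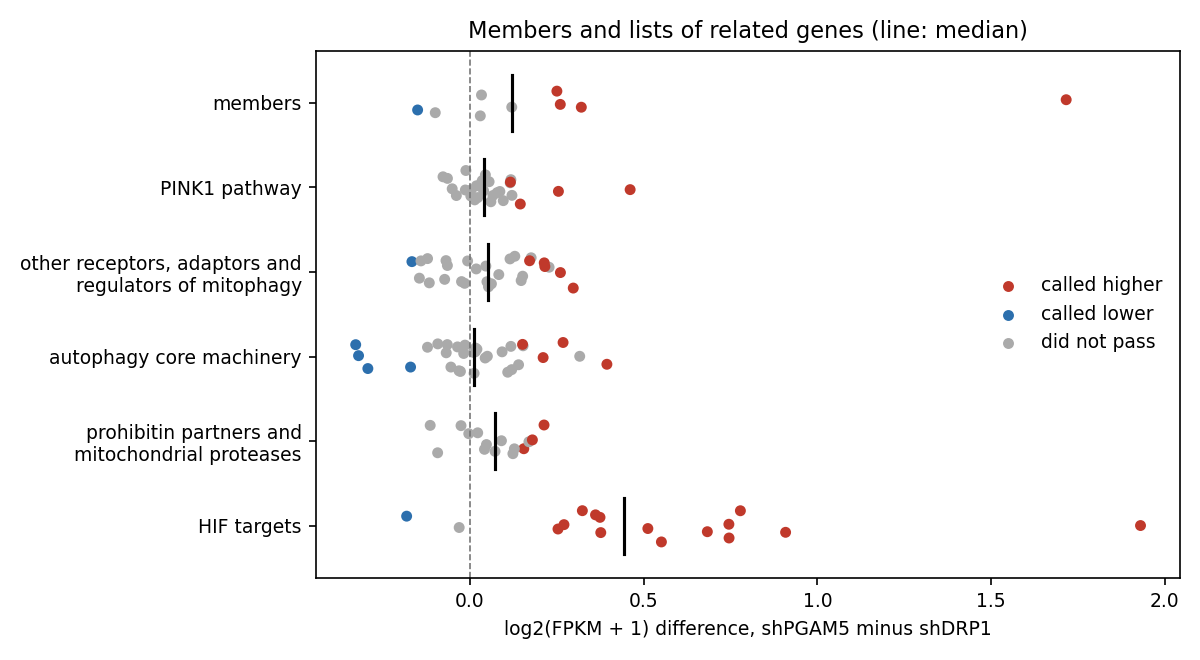
Difference in log2(FPKM + 1), shPGAM5 minus shDRP1, of each tested gene in the members and in 5 lists of related genes; red points were called higher, blue points lower, grey points did not pass, and black lines mark medians. The HIF targets have a median of 0.44, while the medians of the other 4 lists lie between 0.012 and 0.072.

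The genes whose profile was closest to that of Bnip3 over the 6 libraries were sought by the Euclidean distance between log2(FPKM + 1) values, each gene centred on its own mean. The 5 closest were Tnfrsf13b, the receptor TACI (distance 0.18), Il1b, which encodes interleukin-1 beta (0.284), Adm (0.323), Ifi44, an interferon-stimulated gene (0.324), and Timp1, an inhibitor of metalloproteinases (0.393). All were lower than Bnip3 in level, with Tnfrsf13b at 5.20, 5.36 and 5.12 FPKM against 0.941, 0.857 and 0.997. Adm was the 1 of the 5 on the HIF list. With 6 libraries in 2 groups, such a distance rests almost wholly on the size of the difference between the groups. No other member was among them.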

How the data were processed

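The deposited values are FPKM, 1 per gene and library, made by the authors; HISAT2 2.0.5, featureCounts 1.5.0-p3 and build mm10 were used, per the submitters' processing notes. The FPKM formula, annotation release and strand setting were not given in the sources used here. Symbols, positions and exonic lengths came from GENCODE M21 (54409 of 54532 identifiers matched). FPKM times length and 1 depth per library gave values within 0.02 of a whole number of reads for 96.1% of values above 0, and these reads are quoted as counts.

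Differences were tested with limma 3.58.1 in R 4.3.3 (empirical Bayes with trend, two-sided) on log2(FPKM + 1), which understates the change of low genes, for genes with a mean of at least 1 FPKM. Single ratios had an exact permutation test. Transcripts of other genes were matched with blastn 2.17.0. The fit was also run on simulated counts, as a check of the code only. Their spread was set to a fixed value and not estimated from these libraries, so that run does not bear on the calls. Promoter letters came from RefSeq, GRCm38.p6, which held 9 of the 10 members. The members and the 5 lists were chosen with earlier results of these data known. Named besides members were the knockdown targets, near-identical copies, the 3 largest called differences per list, and the 5 genes most like Bnip3. Outside that rule, Nipsnap2, Bhlhe40, Hif1a, Tax1bp1, Nbr1, Calcoco2, the HIF list genes below the filter and some cell type markers were named. Results of these data were known by then. Alternatives covered pseudocount, filter, scaling, trend, block, voom and each library left out.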

Additional observations from a re-analysis of the deposited data

How the results depend on the processing

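Bnip3, Phb2 and Phb kept their direction and passed the threshold in all 14 alternatives, and no alternative other than leaving out 1 library turned the sign of a tested member. The number of members called lower, 1, became 0 without the filter on low values, where limma tested 21552 genes. In that unfiltered fit 1 member was lower at an unadjusted p under 0.05. Voom on recovered reads, which was run with the filter only, called 1 member lower. Over the fits without 1 library the number of all genes called lower was 819 to 1287, lowest without library 3 or 2 of shDRP1 (819 and 822, against 1240), and the log2 difference of Fundc1 was -0.026 to 0.099. The number of members called higher, 4, was 3 to 5 over all alternatives. Of 140 counts for the lists of related genes 125 stayed within 1.5 times. Scaling moved the median of all tested genes from 0.009 to -0.001 (quantile) or 0.003 (median ratio).

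Whether equal replicate numbers pair the libraries is not given in the labels. Deviations from the group means correlated at 0.021, 0.031 and 0 for the same number, and at -0.068 to 0.041 for unlike numbers. These values show no pairing, but with 3 libraries per group they cannot exclude it. With the replicate number as a block 4 members were called higher and 1 lower, as without it, and over all genes 1161 were higher and 972 lower in place of 1464 and 1240. Counting depth bears most on Optn and Calcoco2, which had 1 and 4 reads over all libraries.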
